A study of Mus musculus with 6 samples.

Results

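The marrow stromal niche genes were examined in stimulated primary bone cells. They are 9 genes that mark or carry out the function of the stromal cells around marrow sinusoids, namely *Kitl*, *Angpt1*, *Adipoq*, *Vcam1*, *Lepr*, *Pdgfrb*, *Ebf1*, *Ebf2* and *Ebf3*. They were taken by name from a table of 56748 genes, and all 9 were listed in it. No cutoff on their values was used, but earlier results of these data were known when they were chosen. Of the 9, 8 had enough counts to be tested, among 17146 tested genes in all. *Adipoq* was too low to be tested and is described by its counts.

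The study sequenced RNA from 6 cultures labelled as osteocytes, 3 from WT mice and 3 from conditional knockout mice, labelled cKO. The study's methods name C57BL/6 mice aged 7 weeks and long bones that were digested after the marrow had been flushed out, and the sample records give 7 days of culture. The cKO mice carried *Gsdmd* fl/fl alleles, whose critical exons lie between loxP sites, and a DMP1-Cre transgene, in which the *Dmp1* promoter drives Cre in osteocytes. All 6 cultures, WT included, were exposed to LPS (10 ng/mL, 3 h) and then to aluminum hydroxide (20 µg/mL, 3 h), and no unstimulated libraries were analysed here. The age and strain are stated for the isolation in general and not for each group, and the sources do not say whether animals were pooled or whether replicates came from separate animals, so the p-values measure only the spread between these cultures.

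Marrow stromal cells that express the leptin receptor wrap around sinusoids and feed blood-forming cells with KIT ligand and the chemokine CXCL12. They are also the main source of marrow adipocytes, and they express adiponectin while still without fat droplets. The transcription factors EBF1 and EBF3 are known to keep these cells in their niche state.

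The library totals ranged from 39566835 to 49734046 counts. *Gsdmd*, the deleted gene, had 549 to 699 counts in WT against 885 to 1045 in the libraries labelled cKO. Its log2 fold change was 0.69 (SE 0.083, adjusted p = 2.27e-06), so the pooled count did not show the loss that the label names. The count pools all exons, so the floxed exons could not be read separately and the deletion could not be checked. Below, cKO means the libraries labelled so, and each direction rests on that label. *Xist* had 44817 to 51216 counts in the libraries labelled cKO and at most 4 in WT, while *Ddx3y*, *Eif2s3y*, *Uty* and *Kdm5d*, all Y-linked, were at 0 in every library labelled cKO. Sex therefore differed together with genotype, and their parts in any result cannot be told apart. Of the markers of mature osteocytes on the list, *Sost* was at 0 in all 6 libraries, *Dmp1* at 0 to 6 counts, *Mepe* at 0 to 2, *Phex* at 2 to 22 and *Fgf23* at 8 to 34 in WT and 0 to 6 in cKO. *Pdpn*, an early osteocyte marker that other stromal cells also express, was well detected (233.8 ± 7.59 and 193.0 ± 3.57 CPM, counts scaled by library size).

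Of the 8 tested niche genes, 2 rose (*Angpt1* and *Ebf3*), 3 fell (*Kitl*, *Ebf1* and *Ebf2*) and 3 did not pass (*Vcam1*, *Pdgfrb* and *Lepr*). Higher or lower means an adjusted p below 0.05 in the quasi-likelihood F test of edgeR, adjusted over all tested genes by the method of Benjamini and Hochberg. By the same rule 20.1% of all tested genes were higher and 19.2% were lower in the libraries labelled cKO. With a log2 fold change of at least 1 in size also required, only *Kitl* remained, 1 of 8, where 11.2% of all tested genes passed in either direction. The libraries of the genotypes did not overlap for 6 of the 8, where this held for 49.2% of all tested genes. The median log2 fold change of the 8 was 0.00, and that of all tested genes was 0.01. The niche genes thus moved in both directions, and a list median near 0 was made of a large fall, smaller changes both ways and unresolved differences.

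**Figure D1:**
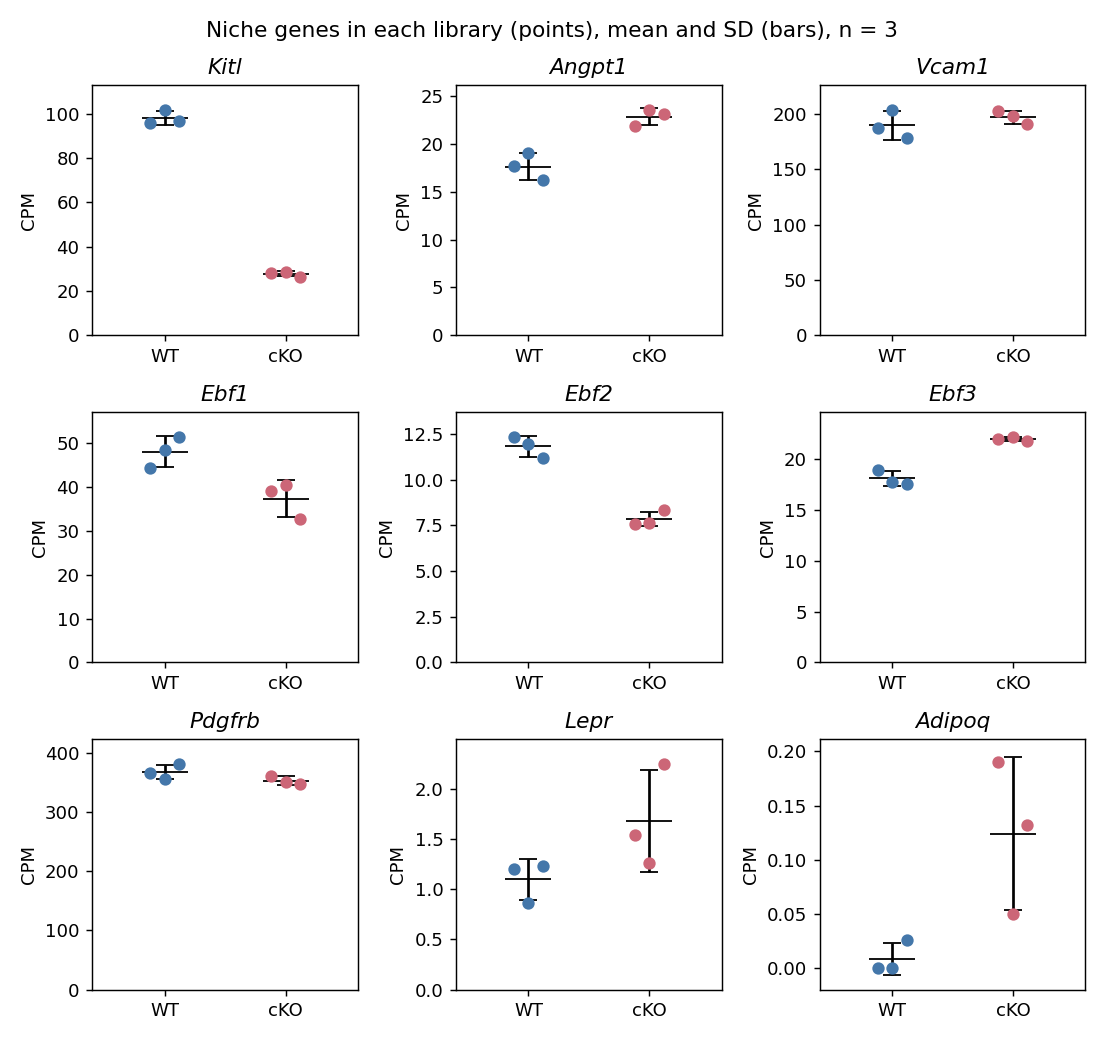
Level of each niche gene in CPM, counts scaled by library size (y axis, linear) in the 3 WT and 3 cKO libraries. Points are libraries, long bars the group mean and short bars 1 SD (n = 3); the y axes differ between panels. *Kitl* stands at 95.8 to 101.7 CPM in WT and 26.4 to 28.4 CPM in cKO, while the *Vcam1* and *Pdgfrb* points of the groups overlap.

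Sequence upstream of *Kitl* and *Ebf3* is shown first, because *Kitl* had the largest fall among the niche genes and *Ebf3* moved against *Ebf1* and *Ebf2*. RefSeq windows of 250 bases before the start (GRCm38.p6) were matched for 5 of the 9 genes, namely *Kitl*, *Ebf1*, *Ebf3*, *Lepr* and *Adipoq*, in 7 windows. *Pdgfrb* was left out of this matching, so nothing is said of its upstream sequence. Each window was also found by exact match in GRCm39, whose coordinates follow, and bases are counted back from the RefSeq start. Capitals mark matches on either strand to the TATA box, searched as TATAAA, to the GC box, searched as GGGCGG, and to the palindrome of EBF factors, searched as CCCNNGGG. The *Kitl* stretch lies at chr10:99851638-99851663 on the plus strand, inside the gene as the deposited table draws it, whose start is at 99851492. The *Ebf3* stretches lie on the minus strand at chr7:136916219-136916424 and chr7:136916180-136916203.
Kitl, -45 to -20: GGGCGGGCGGgagggagctgTATAAA
Ebf3, -250 to -45: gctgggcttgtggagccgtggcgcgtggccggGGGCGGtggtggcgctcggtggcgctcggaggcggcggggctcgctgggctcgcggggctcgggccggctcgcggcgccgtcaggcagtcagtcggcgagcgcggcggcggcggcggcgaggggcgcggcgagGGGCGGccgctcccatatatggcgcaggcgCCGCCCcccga
Ebf3, -29 to -6: gcgccgctCCCGGGGGcttcgagt
The *Kitl* window held 1 TATA box at -25 and GC boxes at -143, -45 and -41, the last 2 overlapping each other. The *Ebf3* window, with a GC content of 80.0%, held GC boxes at -218, -85 and -55 and an EBF palindrome at -21. Neither *Ebf1* window held any of these letters. Both *Ebf1* windows, which start at 44508677 and 44510805, lie inside the annotated gene, whose start is at 44508144. Of 32851 windows of this length, 12.4% held the TATA box, 32.7% a GC box and 11.8% the EBF palindrome. The NF-kB motif, present in 3.9% of windows, was in none of the 7. These are matches of letters and show no binding.

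*Kitl* encodes KIT ligand, or stem cell factor, the niche protein that blood-forming stem cells and mast cells depend on. The gene lies on chromosome 10 of mm39 (GRCm39) from 99851492 to 99936278 on the plus strand. It was counted 4314, 5045 and 3758 times in WT and 1191, 1130 and 1199 times in cKO. As CPM, that is, counts divided by the library size in units of 1000000 after TMM scaling, it stood at 95.8, 101.7 and 96.8 in WT and at 28.3, 28.4 and 26.4 in cKO. Every cKO library lay far below every WT library, and within each genotype the libraries were close together. The mean fell from 98.1 ± 3.12 to 27.7 ± 1.14 CPM (SD, n = 3 each), 3.54-fold lower in cKO. The log2 fold change was -1.82 (SE 0.053, 95% interval -1.94 to -1.71, adjusted p = 1.56e-14), with 94.2% of tested genes smaller in size of change. Across 16 other settings it lay between -1.89 and -1.79 and passed in all 16. In bulk RNA, fewer cells that express a gene and less RNA per cell cannot be told apart, here and for every gene below.

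The receptor of *Kitl* was at the edge of detection. *Kit* was counted 23, 4 and 8 times in WT and 0 times in each cKO library, and it was not tested. With a floor of 3 counts in each cKO library it was at least 3.75-fold lower there, or at least 1.87-fold with a floor of 6 counts, since mates of a pair may have been counted singly. WT 1 carried these bounds, which were 2.02-fold and 1.01-fold without it. Per kilobase of gene length, *Kitl* stood at 16.6 CPM per kb in WT and 4.69 in cKO, against 0.0298 for *Kit* in WT, so little receptor transcript was found beside the ligand in either genotype.

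*Angpt1* encodes angiopoietin-1, a ligand of the TEK (TIE2) receptor of endothelial and blood-forming cells, and it moved the other way from *Kitl*. It lies on chromosome 15 from 42288119 to 42540373 on the minus strand. Its level was 17.6, 19.0 and 16.2 CPM in WT and 21.8, 23.5 and 23.2 CPM in cKO, from 629 to 943 and from 918 to 1052 counts. The cKO libraries all lay above the WT libraries. *Angpt1* rose from 17.6 ± 1.40 to 22.8 ± 0.905 CPM (SD, n = 3 each), 1.29-fold, with a log2 fold change of 0.37 (SE 0.083, 95% interval 0.20 to 0.55, adjusted p = 0.00148), and passed in all 16 other settings. An antisense noncoding gene, *Gm17473*, overlaps it and had 6 to 19 counts.

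Other genes of the angiopoietin system fell. *Tek*, the receptor, was counted 56, 54 and 36 times in WT and 2, 0 and 5 times in cKO, with a log2 fold change of -4.25 (SE 0.64, adjusted p = 3.18e-05). *Angpt4*, a further ligand of TEK, was counted 772 to 1010 times in WT and 138 to 162 times in cKO and fell from 20.0 ± 0.362 to 3.45 ± 0.149 CPM, with a log2 fold change of -2.53 (adjusted p = 2.00e-12). *Angpt2*, which can block or activate TEK by context, fell from 1.80 ± 0.502 to 0.801 ± 0.438 CPM (log2 change -1.16, adjusted p = 0.0201), a call lost without WT 1 (-0.93, adjusted p = 0.108), cKO 1 (-0.89, 0.0909) or cKO 2 (-1.02, 0.0853). *Tie1*, the co-receptor of TEK, was counted 3, 24 and 8 times in WT and 0 times in each cKO library, at least 3.55-fold lower, or at least 1.78-fold with the floor of 6. Without WT 2 the first bound was 1.92-fold, and with the floor of 6 no fall was resolved. Of the 3 angiopoietins *Angpt1* alone rose. Per kilobase it stood at 3.38 CPM per kb in WT and 4.39 in cKO, and *Angpt4* at 8.55 and 1.48, so their order changed between the genotypes.

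*Adipoq* encodes adiponectin, a hormone of adipocytes that marrow stromal cells also make. It lies on chromosome 16 from 22965286 to 22976778 on the plus strand. Its counts were 0, 0 and 1 in WT and 8, 2 and 6 in cKO. Summed over libraries this was 1 count against 16, a ratio of 16.8 after scaling, with a 95% exact binomial interval of 2.61 to 704 that covers counting error only. With counts halved and rounded up, as for mates counted singly, it was 1 against 8, a ratio of 8.39 with an interval of 1.12 to 372. The cKO libraries all held more counts than the WT libraries, but the level in cKO was 0.124 ± 0.0702 CPM. Without the filter on low counts the log2 fold change was 3.57 with an adjusted p of 0.164, so no change was resolved at this depth.

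The adiponectin receptors were well detected. *Adipor1* fell slightly, from 189.8 ± 2.59 to 171.8 ± 4.10 CPM (log2 change -0.14, adjusted p = 0.00890), a call lost without cKO 2 (-0.13, adjusted p = 0.0570). *Adipor2* stood at 98.6 ± 4.27 CPM in WT and 97.4 ± 3.18 CPM in cKO (adjusted p = 0.817). *Cdh13*, which encodes T-cadherin, a surface protein that binds adiponectin, rose from 49.6 ± 1.49 to 77.7 ± 3.38 CPM (log2 change 0.65, adjusted p = 1.36e-08).

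*Vcam1* encodes the adhesion molecule by which stromal cells hold blood-forming cells and which macrophages and cytokine-activated endothelium also carry. It lies on chromosome 3 from 115903598 to 115923337 on the minus strand. Its level was 187.4, 203.7 and 178.4 CPM in WT and 202.9, 197.9 and 190.9 CPM in cKO, from 6925 to 10111 counts. The groups overlapped, with the highest and the lowest library both in WT. The means were 189.9 ± 12.8 and 197.2 ± 5.99 CPM (SD, n = 3 each), and the log2 fold change was 0.05 (SE 0.049, 95% interval -0.05 to 0.16, adjusted p = 0.425). It did not pass in any of the 16 other settings, and with upper-quartile scaling it was -0.01. *Gm43109*, an antisense noncoding gene that overlaps *Vcam1*, had 51 to 62 counts in WT and 85 to 122 in cKO.

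The integrins that bind VCAM1 changed in both directions. *Itga4*, the alpha-4 chain that leukocytes carry, was counted 104 to 157 times in WT and 516 to 729 times in cKO and rose from 2.77 ± 0.357 to 14.7 ± 2.08 CPM (log2 change 2.40, adjusted p = 3.40e-10). *Itga9*, the related alpha-9 chain, rose from 23.0 ± 0.867 to 32.0 ± 1.51 CPM (0.48, adjusted p = 2.21e-05). *Itgb1*, their shared beta chain, fell from 1471 ± 25.3 to 1111 ± 2.20 CPM (-0.40, adjusted p = 8.88e-09), and *Itgb7*, the other beta partner of alpha-4, stood at 9.73 and 9.22 CPM (-0.08, adjusted p = 0.630). Among 6 further adhesion genes, 4 were tested, of which 2 rose, 1 fell and 1 did not pass. Of all tested genes 20.1% rose and 19.2% fell. *Icam1* rose from 40.6 ± 4.39 to 60.1 ± 3.52 CPM and *Alcam* from 47.6 ± 2.69 to 77.2 ± 3.09 CPM. *Selp*, the P-selectin of endothelium and platelets, fell from 12.5 ± 1.40 to 7.58 ± 1.20 CPM. In some other settings, given at the end, 2 adhesion genes were lower.

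*Lepr* encodes the leptin receptor, whose expression gives these stromal cells their usual name. It lies on chromosome 4 from 101574601 to 101672549 on the plus strand. It was counted 54, 43 and 48 times in WT and 65, 50 and 102 times in cKO, or 1.20, 0.866 and 1.24 CPM against 1.54, 1.26 and 2.25 CPM. The libraries of the genotypes did not overlap, but cKO 2 lay close to the WT libraries and cKO 3 well above the rest. The means were 1.10 ± 0.204 and 1.68 ± 0.508 CPM (SD, n = 3 each), and the log2 fold change of 0.62 (SE 0.31, 95% interval -0.04 to 1.28) did not pass (adjusted p = 0.135), nor did it in any of the 16 other settings, where it lay between 0.35 and 0.79.

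Leptin itself, *Lep*, was at 0 counts in all 6 libraries, which at this depth allows up to 3 counts in each, or 6 with mates counted singly. *Leprot*, a membrane protein that regulates surface delivery of the receptor, stood at 97.3 ± 4.12 and 98.7 ± 3.43 CPM (adjusted p = 0.798), and its relative *Leprotl1* at 56.6 ± 2.38 and 60.5 ± 2.53 CPM (adjusted p = 0.181). Of 7 genes downstream of the receptor, which many cytokine receptors share, 4 rose and 1 fell, where 20.1% of all tested genes rose and 19.2% fell. *Irs2*, an adapter of insulin and cytokine signalling, rose from 14.5 ± 0.706 to 30.3 ± 2.37 CPM, *Socs3*, a feedback inhibitor, from 107.4 ± 2.37 to 144.7 ± 3.63 CPM and *Stat5b*, a transcription factor, from 42.4 ± 1.62 to 52.3 ± 3.56 CPM. *Jak2*, the kinase bound to the receptor, fell from 91.3 ± 3.95 to 64.2 ± 1.09 CPM (log2 change -0.51, adjusted p = 1.82e-07).

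*Pdgfrb* encodes the beta receptor of platelet-derived growth factor, found on pericytes and on most stromal cells. It lies on chromosome 18 from 61178222 to 61218133 on the plus strand. It was the most abundant of the niche genes per kilobase. Its level was 365.1, 356.1 and 380.5 CPM in WT and 361.1, 350.1 and 347.4 CPM in cKO, from 13921 to 17670 counts. The groups overlapped, since cKO 1 lay above WT 2. The means were 367.2 ± 12.3 and 352.8 ± 7.28 CPM (SD, n = 3 each), with a log2 fold change of -0.06 (SE 0.039, 95% interval -0.14 to 0.03, adjusted p = 0.275). It passed in 1 of the 16 other settings, upper-quartile scaling, at -0.13 (adjusted p = 0.0130).

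The rest of the platelet-derived growth factor system changed around it. *Pdgfra*, the alpha receptor and a marker of fibroblasts and stromal progenitors, rose from 498.7 ± 10.5 to 679.5 ± 11.1 CPM (log2 change 0.45, adjusted p = 1.19e-08). *Pdgfb*, the ligand that recruits pericytes, was counted 88 to 90 times in WT and 317 to 345 times in cKO and rose from 2.03 ± 0.228 to 7.79 ± 0.851 CPM (1.95, adjusted p = 4.49e-08). *Pdgfd*, the other ligand that acts through the beta receptor, was counted 468 to 608 times in WT and 74 to 85 times in cKO and fell from 11.98 ± 0.324 to 1.89 ± 0.218 CPM (-2.67, adjusted p = 6.52e-11). The pair of ligands of the beta receptor thus moved in opposite directions while no change of the receptor was resolved. *Pdgfa* fell from 55.1 ± 1.59 to 45.0 ± 1.88 CPM (-0.29, adjusted p = 3.07e-04), and *Pdgfc* stood at 56.2 ± 2.72 and 53.1 ± 0.531 CPM (-0.08, adjusted p = 0.251).

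**Figure D2:**
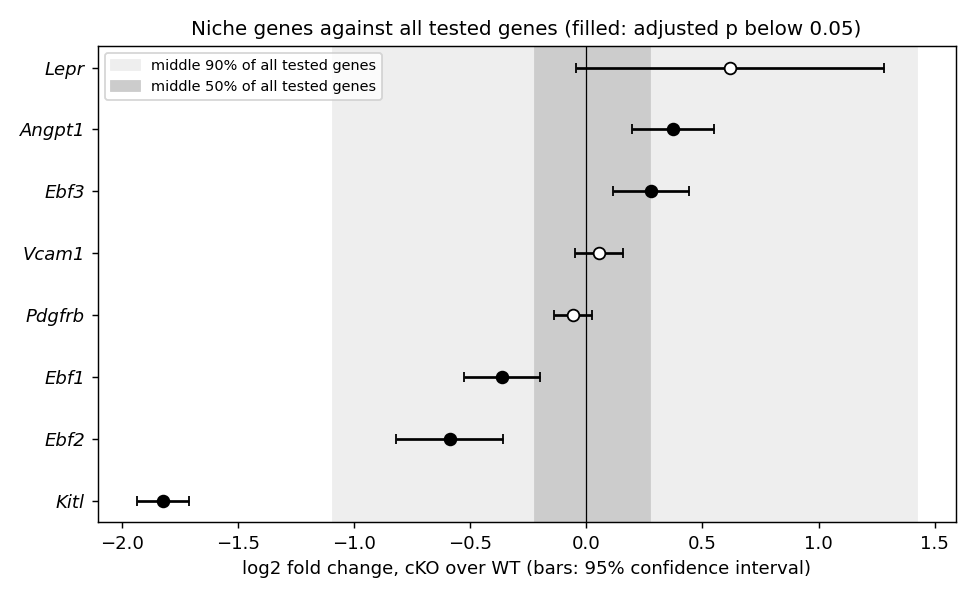
Log2 fold change of the 8 tested niche genes, cKO over WT (x axis), with 95% confidence intervals; filled points passed an adjusted p below 0.05. Light and dark bands hold the middle 90% and the middle 50% of all tested genes, -1.09 to 1.42 and -0.22 to 0.27, and *Kitl* at -1.82 is the only niche gene outside the wider band.

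EBF1, EBF2 and EBF3 are paralogous helix-loop-helix transcription factors of stromal and fat cells, and EBF1 is also a B cell factor. *Ebf1*, on chromosome 11 from 44508144 to 44898918, stood at 44.3, 48.5 and 51.3 CPM in WT and at 39.0, 40.4 and 32.6 CPM in cKO, from 1993 to 2408 and from 1482 to 1640 counts. The libraries of the genotypes did not overlap, and cKO 3 was the lowest of all. It fell from 48.1 ± 3.53 to 37.3 ± 4.14 CPM (SD, n = 3 each), with a log2 fold change of -0.36 (SE 0.077, 95% interval -0.53 to -0.20, adjusted p = 9.68e-04), and passed in all 16 other settings. The 9 B lineage markers summed to 0.541 to 0.725 CPM in WT and 0.277 to 0.523 CPM in cKO, and none had enough counts to be tested.

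*Ebf2*, a factor of immature mesenchymal and brown fat cells on chromosome 14 from 67470741 to 67668367, also fell. It was counted 555, 592 and 435 times in WT and 320, 304 and 378 times in cKO, or 12.3, 11.9 and 11.2 CPM against 7.60, 7.64 and 8.32 CPM. No cKO library reached the WT range. Its mean fell from 11.8 ± 0.569 to 7.86 ± 0.403 CPM (SD, n = 3 each), with a log2 fold change of -0.59 (SE 0.11, 95% interval -0.82 to -0.36, adjusted p = 2.78e-04), and it passed in all 16 other settings. The antisense gene *Gm10860*, which overlaps *Ebf2*, had 1 to 9 counts.

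*Ebf3*, the family member most tied to the marrow niche, rose. It lies on chromosome 7 from 136795402 to 136916174 on the minus strand, with the upstream stretches shown above. It was counted 853, 883 and 681 times in WT and 924, 881 and 987 times in cKO, or 19.0, 17.8 and 17.5 CPM against 22.0, 22.2 and 21.7 CPM. All cKO libraries lay above all WT libraries. *Ebf3* rose from 18.1 ± 0.751 to 21.9 ± 0.214 CPM (SD, n = 3 each), with a log2 fold change of 0.28 (SE 0.077, 95% interval 0.12 to 0.44, adjusted p = 0.00764), and passed in all 16 other settings, between 0.21 and 0.30. The antisense gene *Gm45278*, which overlaps *Ebf3*, had 0, 12 and 1 counts in WT and 16, 23 and 17 in cKO.

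*Ebf4*, the remaining family member, fell from 3.10 ± 0.688 to 1.86 ± 0.336 CPM (log2 change -0.74, adjusted p = 0.0204), a call lost without WT 2 (-0.55, adjusted p = 0.115), cKO 1 (-0.61, 0.0902) or cKO 3 (-0.76, 0.0508). Per kilobase of gene length, the summed level of the 4 *Ebf* genes was 9.55 ± 0.279 CPM per kb in WT and 7.91 ± 0.412 CPM per kb in cKO. As a share of that sum, *Ebf3* stood at 22.2%, 19.6% and 19.9% in WT and at 30.0%, 28.9% and 31.4% in cKO. *Ebf1* was the most abundant in every library, at 51.6% ± 3.08 and 48.3% ± 3.15 of the sum (SD, n = 3 each), and *Ebf2* made up 17.9% ± 1.20 and 14.4% ± 1.46. These shares are descriptions with no test. *Zfp423* and *Zfp521*, zinc finger proteins that bind EBF factors and restrain them, stood at 2.07 and 2.00 CPM (adjusted p = 0.887) and at 71.2 and 72.3 CPM (adjusted p = 0.763).

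**Figure D3:**
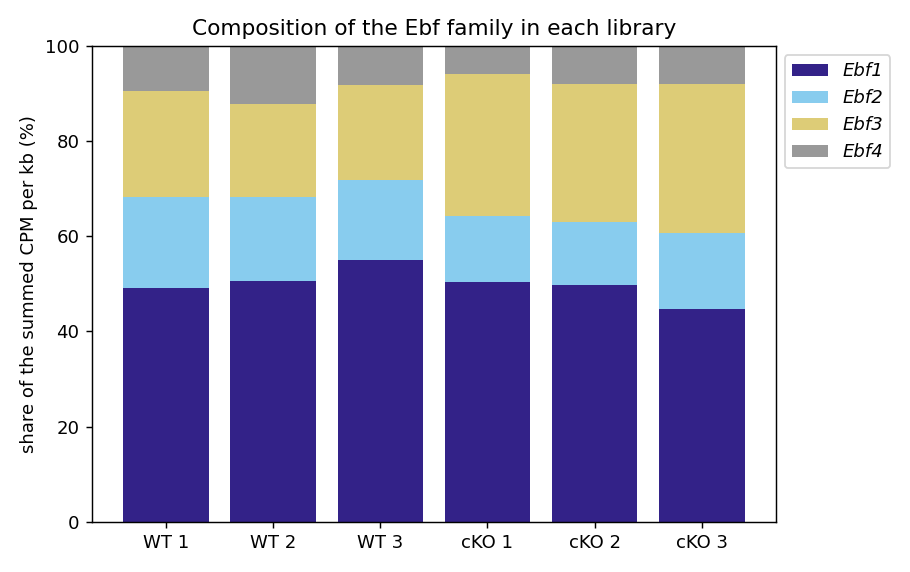
Share of the summed CPM per kb (y axis, percent) held by each of *Ebf1* to *Ebf4* in the 6 libraries, as stacked bars from 0 to 100%. The *Ebf3* part is 19.6% to 22.2% in WT and 28.9% to 31.4% in cKO.

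Per kilobase, the order of the niche genes in WT was *Pdgfrb* (67.0 ± 2.25 CPM per kb), *Vcam1* (21.4 ± 1.45), *Kitl* (16.6 ± 0.527), *Ebf1*, *Angpt1*, *Ebf3*, *Ebf2*, *Lepr* (0.156 ± 0.0289) and *Adipoq* (0.00622 ± 0.0108), and no neighbours in it overlapped between libraries. In cKO, *Angpt1* stood above *Ebf1*, and *Kitl*, at 4.47 to 4.81 CPM per kb, overlapped with *Angpt1* at 4.19 to 4.52. *Kitl* thus came down from near the level of *Vcam1* to that of *Angpt1*, while *Pdgfrb* and *Vcam1* held the first places in both genotypes.

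Of the 23 ligands, receptors and cofactors of the niche genes, 20 were tested, of which 5 rose, 8 fell and 7 did not pass. Their median log2 fold change was -0.07, beside 0.01 for all tested genes, of which 20.1% rose and 19.2% fell.

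**Figure D4:**
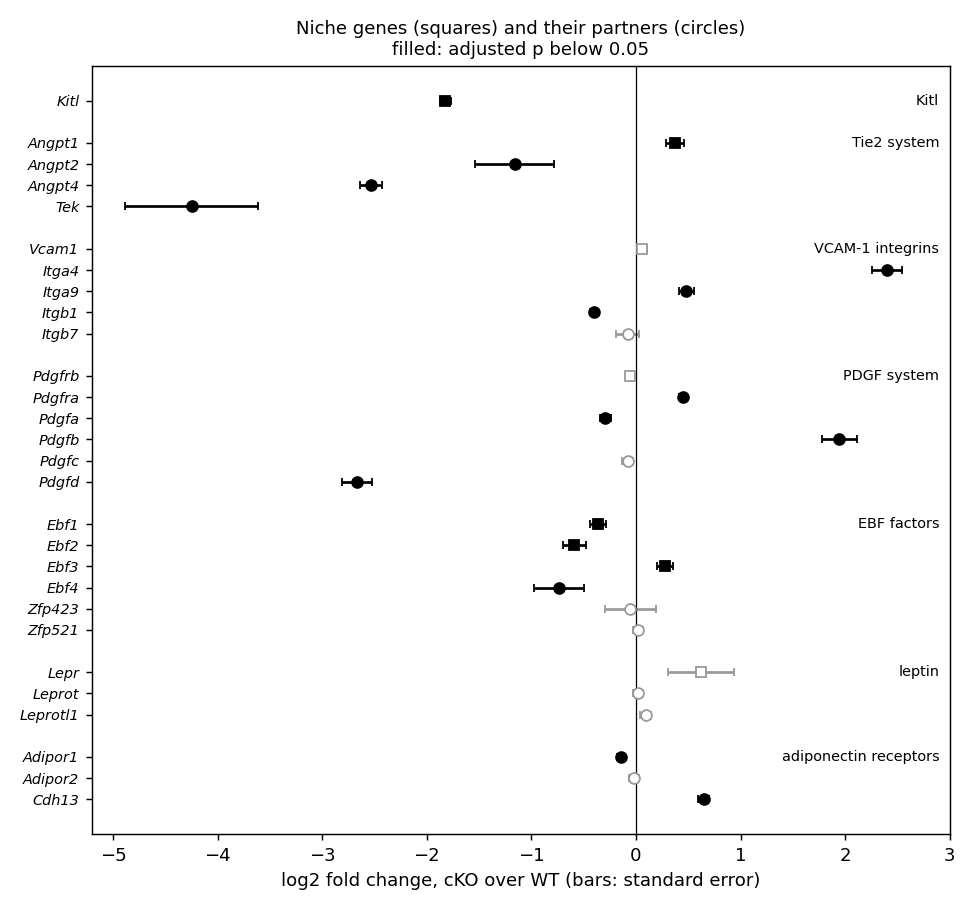
Log2 fold change, cKO over WT (x axis), of tested niche genes (squares) and their tested ligands, receptors and cofactors (circles), grouped by system, with standard errors as bars; filled symbols passed an adjusted p below 0.05. *Tek* at -4.25, *Pdgfd* at -2.67 and *Angpt4* at -2.53 lie farthest to the left and *Itga4* at 2.40 farthest to the right.

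Other genes known from marrow niche stroma, 28 in all and all tested, rose in 15 cases, fell in 8 and did not pass in 5. Their median log2 change was 0.28, beside 0.01 for all tested genes, of which 20.1% rose and 19.2% fell. *Cxcl12*, the chemokine that retains stem cells, was higher at 1053 ± 12.1 against 333.6 ± 32.8 CPM in WT (log2 fold change 1.66, adjusted p = 5.71e-14), the opposite direction to *Kitl*. *Bst1*, a surface enzyme, rose from 9.67 ± 1.69 to 45.6 ± 2.77 CPM, and *Chrdl1*, a BMP antagonist, from 4.03 ± 1.28 to 26.1 ± 2.40 CPM. Macrophage markers rose too (below), and the part of macrophages in the rise of *Bst1* was not tested. *Grem1*, another BMP antagonist, fell from 486.3 ± 25.8 to 228.2 ± 6.82 CPM, *Nes*, the filament protein nestin of perivascular stromal cells, from 26.4 ± 1.89 to 7.96 ± 0.962 CPM, and *Csf1*, the macrophage growth factor, from 1294 ± 73.8 to 884 ± 23.6 CPM. *Foxc1*, the other transcription factor that defines the niche cells, was counted 6103 to 8134 times in WT and 7926 to 8586 times in cKO (log2 fold change 0.23, adjusted p = 0.00106). Of the markers of these cells, *Cxcl12*, *Kitl*, *Foxc1* and *Ebf3* were well detected, while *Lepr* was near 1 CPM and *Adipoq* near 0, so the name niche is used here for the genes and not for a cell population.

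Of 25 genes of adipocytes, the cells that niche stroma can give rise to, 16 were tested and the rest had too few counts. Of the 16, 12 rose, 1 fell and 3 did not pass, where 20.1% of all tested genes rose and 19.2% fell. Their median log2 change was 0.73, beside 0.01 for all tested genes. *Cebpa*, a fat cell transcription factor also used by myeloid cells, rose from 15.9 ± 0.939 to 52.5 ± 1.54 CPM, *Acsl1*, a fatty acid activating enzyme, from 32.8 ± 0.249 to 71.6 ± 0.955 CPM and *Cd36*, a fatty acid transporter that macrophages carry too, from 71.6 ± 4.69 to 419.1 ± 11.2 CPM. *Scd1*, a desaturase, fell from 253.4 ± 20.2 to 174.6 ± 5.11 CPM. *Lpl*, *Fabp4*, *Pnpla2*, *Lipe* and *Pparg*, which act in lipid uptake, transport, breakdown and fat cell formation, rose as well, with *Lpl* at 17.3 ± 1.65 and 33.2 ± 3.46 CPM, *Fabp4* at 4.49 ± 0.175 and 7.72 ± 1.44 CPM and *Pparg* at 1.78 ± 0.193 and 3.10 ± 0.377 CPM. *Plin4*, a lipid droplet protein, stood at 1.15 ± 0.312 and 1.51 ± 0.398 CPM (adjusted p = 0.369). On the same list *Plin1*, *Cidec*, *Cidea*, *Adig*, *Cfd* and *Lep* were at 0 in every library. *Lpl* is counted in the list of other niche stroma genes too. Macrophage markers rose as well (below), and the part of macrophages in the rises on the adipocyte list was not tested.

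Markers of other cell types moved with the same comparison. Of all tested genes 20.1% were higher and 19.2% lower. The lists were chosen with earlier results of these data known, so their counts are descriptions and no independent support. All 16 macrophage markers rose, with a median log2 change of 3.00, and their summed level was 1300 to 1462 CPM in WT and 7312 to 7655 CPM in cKO. *Ctss*, *Ms4a7* and *Csf1r* had the smallest p-values, and *Csf1r*, the macrophage growth factor receptor, rose from 26.1 ± 1.63 to 234.9 ± 8.39 CPM. The 12 pericyte and smooth muscle markers, of which 10 were tested, rose in 1 case (*Cspg4*) and fell in 8, with *Tagln* at 402.7 ± 18.6 and 134.5 ± 4.55 CPM, *Acta2* at 760.6 ± 77.1 and 376.1 ± 26.8 CPM and *Notch3* at 44.4 ± 2.30 and 20.7 ± 0.625 CPM. Their summed level was 1314 to 1514 CPM in WT and 646 to 722 CPM in cKO. The 12 endothelial markers, 10 tested, rose in 1 case (*Kdr*) and fell in 6, among them *Eng*, *Emcn* and *Tek*. Their summed levels were 158 to 173 CPM in WT and 94.8 to 100.1 CPM in cKO. *Eng* made up most of these sums, at 151.7 ± 8.56 and 87.3 ± 2.92 CPM, while *Emcn* and *Tek* stood at only 1.11 and 1.09 CPM in WT. The part of these cell types in the results for *Kitl*, *Angpt1*, *Itga4*, *Tek* and the other genes named was not tested.

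Bone and periosteal genes also differed, in a comparison where 20.1% of all tested genes rose and 19.2% fell. Of 15 osteoblast and osteocyte genes, 8 were tested, 2 rose (*Ibsp* and *Alpl*) and 5 fell (3 without cKO 3), with *Col1a1*, the main collagen of bone, at 5802 ± 315 and 3650 ± 139 CPM, *Spp1*, osteopontin, at 8495 ± 646 and 5442 ± 32.5 CPM, and *Pdpn* at 233.8 ± 7.59 and 193.0 ± 3.57 CPM. Of 9 periosteal and fibroblast genes, 3 rose, *Pdgfra*, *Aspn* and *Dpt*, and 5 fell, with *Postn*, a matrix protein of periosteum, at 230.6 ± 9.27 and 26.4 ± 0.481 CPM and *Thy1* and *Ly6a* also lower. The summed level of the 9 niche genes was 742.8 to 759.6 CPM in WT and 652.9 to 684.3 CPM in cKO. The ratio of these sums was 0.890, a smaller change than in the macrophage or the pericyte and smooth muscle list. Other lists lay near 1 too, at 0.872 for the periosteal and fibroblast genes and 0.934 for the ligands, receptors and cofactors. *Pdgfrb* and *Vcam1*, which did not pass, made up most of the niche sum, at 367.2 and 189.9 CPM in WT. The sum therefore says little about the other niche genes, such as *Kitl*, which fell from 98.1 to 27.7 CPM.

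**Figure D5:**
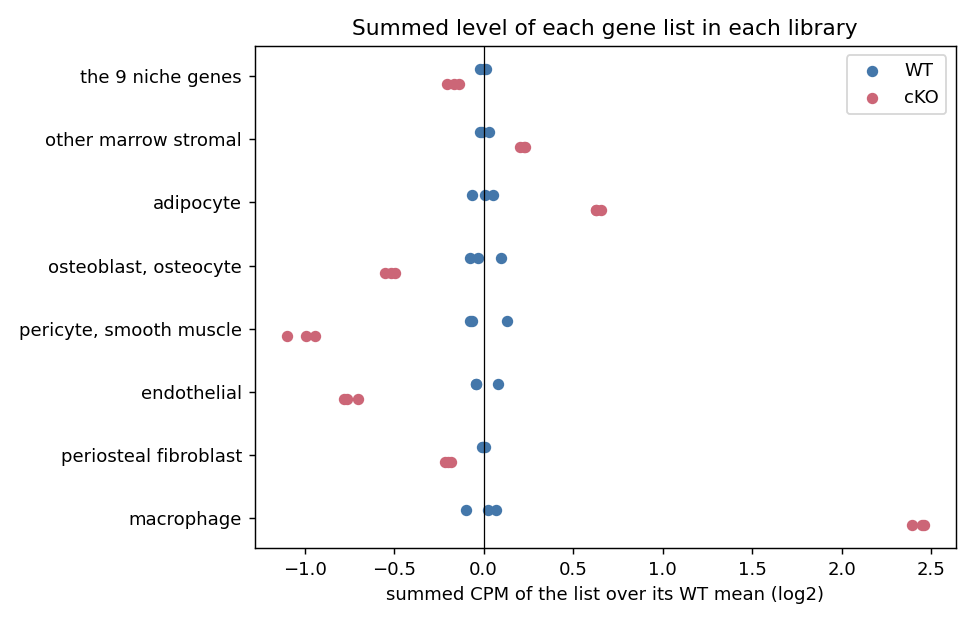
Summed CPM of each gene list in each library over the WT mean of that list (x axis, log2), with WT and cKO libraries as points. The niche genes sit slightly below 0 in cKO, the macrophage list lies far to the right and the pericyte and smooth muscle list about 1 unit to the left.

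The genes whose profile over the 6 libraries was most like that of a niche gene were searched among 12405 protein-coding genes, by the root mean square difference of centred log2 CPM. *Mfap5*, a microfibril protein, was nearest to *Kitl* (0.0588). *Slc37a4* (0.00783) and *Ror2* (0.0466) were nearest to *Ebf1*, *Rbms3* (0.0330) and *Sytl4* (0.0351) to *Ebf2*, and *Rxra* (0.0170) and *Zfp36l2* (0.0189) to *Ebf3*. *Emc2* and *H3f3a* were nearest to *Angpt1*, *Ufc1* and *Ndufa7* to *Vcam1*, *Fbh1* and *Trmt1* to *Pdgfrb*, and *Zfp784* and *Tmem205* to *Lepr*, whose nearest distance of 0.169 was the largest. These likenesses over 6 libraries, 3 in each genotype, are descriptions.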

How the data were processed

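RNA of 6 cultures, 3 WT and 3 cKO by the sample labels, was analysed. Per the submitters' processing notes and the methods, paired-end reads of 150 bp were trimmed and aligned by the authors to mm39 (GRCm39) with HISAT2 2.0.5, and featureCounts 1.55.0-p3 made the gene counts. The methods give another featureCounts release and also name RSEM. The libraries were directional, and the strand setting of the counting is not given in the sources used here, so reads of *Vcam1*, *Angpt1*, *Ebf2* and *Ebf3* and of their overlapping antisense genes cannot be told apart. The authors deposited raw counts per gene with gene lengths and coordinates, and 0 columns belonged to other samples.

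Counts were analysed with edgeR 4.0.16 in R 4.3.3 (filterByExpr, TMM, glmQLFit, glmQLFTest), with genotype as the only term and Benjamini-Hochberg adjustment over 17146 genes. The SE is the size of the log2 fold change divided by the square root of the F statistic. CPM are TMM-scaled, and CPM per kb divide by the deposited length. Alternatives were DESeq2 1.42.0, limma-voom (limma 3.58.1), other scalings and filters, robust estimation, counts halved, a replicate block and each library left out. On counts simulated with the depths and fitted dispersions of these libraries, with 16813 genes tested, edgeR recovered 83 of 98 genes changed by a log2 fold of 1.5. It recovered 92 of 97 changed by 2, and called 14 unchanged genes. Smaller changes were not simulated, so this does not address the calls of *Ebf1*, *Ebf2*, *Ebf3* and *Angpt1*, at 0.28 to 0.59 in size. Far fewer genes were changed in it than the 20.1% higher and 19.2% lower in the data, so its false calls may not carry over.

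Library totals were 45128793, 49734046 and 39590527 in WT and 41645500, 39566835 and 45161392 in cKO. Even values made up 63.4% to 65.7% of the counts between 1 and 10, which counting each mate of a pair would give. Replicates differed by more than sampling noise (chi-square per gene 4.88 to 13.9), so all 6 libraries were counted separately. The intervals of log2 fold changes include the spread between libraries, while the binomial interval of *Adipoq* and the floors cover counting error only.

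The genes named are the 9 niche genes, *Gsdmd*, 5 sex-chromosome genes, all 23 partners, from each other list the 3 genes of smallest p-value in each direction, defining markers at 0, and the 2 protein-coding genes (mean CPM of at least 1) nearest to each niche gene, of which 1 is not reported here. *Foxc1*, *Dmp1*, *Mepe*, *Phex*, *Fgf23*, *Lpl*, *Fabp4*, *Pnpla2*, *Lipe*, *Pparg* and *Plin4* were named outside that rule, as markers, after their values were seen. The niche genes and all lists were chosen with earlier results of these data known. Upstream sequences are from RefSeq (GRCm38.p6).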

Additional observations from a re-analysis of the deposited data

How the results depend on the processing

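The calls of the 8 tested niche genes were recomputed under 16 other settings, 10 alternative choices and 6 with 1 library left out. *Kitl*, *Ebf1*, *Ebf2*, *Ebf3* and *Angpt1* passed in the same direction in all 16, and no named gene past the threshold turned its direction. With at least 10 counts required in every library, the number of tested genes lower with a log2 fold change of at least 1 went from 796 to 522, with fewer genes tested (15134). Upper-quartile scaling moved the median of all genes to -0.06 and the share of higher genes among those called from 51.19% to 39.46%. *Pdgfrb* (-0.13, adjusted p = 0.0130) and *Pdgfc* (-0.15, adjusted p = 0.0313) then passed as lower. Libraries of the same replicate number did not deviate together, since their deviations from the group means correlated at -0.0103 to 0.00228. The sources do not say whether cultures of the same number were prepared together, and so few libraries cannot exclude it. With the number as a replicate block, 2 niche genes were higher and 3 lower, as without it, and over all genes 3298 were higher and 3098 lower, against 3445 and 3285.

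Among the lists, lower adhesion genes went from 1 to 2 and lower B lineage genes from 0 to 1 without the filter on low counts, and lower endothelial genes from 6 to 3 with at least 10 counts in every library. With 1 library left out, lower adhesion genes lay between 1 and 2 (2 without WT 1 or any cKO library), lower B lineage genes between 0 and 1 (1 without WT 3 or cKO 2) and lower osteoblast and osteocyte genes between 3 and 5 (3 without cKO 3). Leaving out 1 library ended no call of a niche gene. It ended those of *Angpt2*, *Ebf4* and *Adipor1* in the cases given beside their values. Halving the counts of *Adipoq* and leaving out WT libraries for *Kit* and *Tie1* were settings chosen after seeing the data. Depth limits these 3, which were not tested, and *Lepr*, whose interval runs from -0.04 to 1.28. Sex and genotype cannot be told apart.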
